A study of Mus musculus with 4 samples.

Results

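The Zfp-named genes are mouse genes whose symbol is Zfp followed by a number. The name stands for zinc finger protein. Members were taken from the probe annotation of the array by that pattern, with Zfp36 left out because it encodes an mRNA decay factor of another kind, and the probe set with the highest mean stood for each gene. This gave 316 members among 19938 measured genes, and no member was removed for a low signal. They were measured in whole bone marrow of C57BL/6 mice with leukemia carrying MLL-AF9, a fusion that drives acute myeloid leukemia. Both groups carry MLL-AF9: 2 arrays hold MLL-AF9/Hes1+/+ marrow (wild type) and 2 hold MLL-AF9/Hes1-/- marrow (Hes1-null). Age, the number of animals behind a sample, and whether the marrows came from separate animals are not stated in the labels, so a p-value measures only the spread between these samples, which may be technical. The marrow was not sorted, so it can hold normal cells beside leukemic ones, and fewer cells of a type cannot be told apart from less RNA per cell.

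Most Zfp genes encode proteins with tandem C2H2 zinc fingers, in which pairs of cysteines and histidines hold a zinc ion and neighbouring fingers read successive stretches of DNA. Many also carry a KRAB domain, which binds the scaffold protein encoded by Trim28 and through it brings histone methylation, heterochromatin proteins and DNA methylation to retroelements and imprinted regions. The KRAB genes multiplied by tandem duplication and lie in clusters along the chromosomes, while other Zfp genes are single and act in stem cells, blood cells, RNA handling or ribosome assembly. Hes1, the gene deleted here, encodes a basic helix-loop-helix repressor induced by Notch signalling. The comparison addresses what loss of Hes1 does to gene levels in this leukemia.

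Levels are log2 of the deposited intensity, and differences are given as the Hes1-null mean less the wild-type mean ± SE, from 2 arrays in each genotype. SE is the moderated standard error of limma. It also draws on the variance of other genes, so it is not the spread of that gene's arrays alone. A probe set's brightness also depends on its probes, so levels of different genes are compared only roughly. They serve to split genes at the median level, to name the brightest members and to set a lower limit from Y-linked genes. Hes1 itself overlapped, with wild-type levels of 5.59 and 5.79 and Hes1-null levels of 5.43 and 5.84, so it does not check the labels, and Hes1-null means so labelled. Hes1-null array 2 stood apart. Across the 316 members it correlated at r = 0.955 to 0.959 with the other 3 arrays, while the wild-type arrays correlated at 0.991 with each other and at 0.979 to 0.980 with Hes1-null array 1. Results are therefore also given array by array. The 12 myeloid markers had a median level of 11.2. Their summed intensity was 38100 to 39000 on the wild-type arrays and 25700 to 25900 on the Hes1-null arrays. Summed T cell markers (9 measured of 11) were 768 to 1110 against 504 to 539, and megakaryocyte markers (6 of 8) 1090 to 1110 against 606 to 607. B cell markers (9 of 10) gave 1240 to 1250 against 1020 to 1800, NK markers (9 of 9) 327 to 331 against 275 to 281, erythroid markers (8 of 10) 532 to 614 against 366 to 553, and stromal and endothelial markers (12 of 12) 1520 to 1620 against 1460 to 1660. The sums follow their brightest genes. Cd28 went from 9.07 and 7.86 to 6.14 and 6.07, a large share of the T cell fall, and Pdgfrb was higher (0.80) while the median stromal difference was -0.30. Gene by gene, the number lower without overlap was 6 of 12 myeloid (2 higher), 7 of 9 T cell (1 higher), 5 of 6 megakaryocyte, 2 of 9 B cell (2 higher), 5 of 9 NK, 2 of 8 erythroid and 6 of 12 stromal and endothelial markers (1 higher), where 20.6% of all genes were lower and 17.4% higher. Median differences were -0.50, -0.34, -0.61, -0.15, -0.14, -0.17 and -0.30 in that order. Among the lower markers, Klrb1c of the NK list lay between 3.18 and 3.72, and Lepr of the stromal list between 3.56 and 4.04. Both were under the Y-linked limit of 4.09 on every array, so their levels are not shown to lie above background. Of 14 immediate early genes, which can respond to sample handling among other things, 13 had both Hes1-null arrays above both wild-type arrays (background 17.4%). The cause of this rise was not tested and cannot be told apart from genotype here. The part of these shifts in the Zfp results was not tested.

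Zfp459 was the 1 member that passed the test over all genes. It belongs to the chromosome 13 cluster of regulator of sex-limitation candidate genes, and its other name is Rslcan-14. Its level was 5.99 and 6.03 in wild type and 4.44 and 4.45 in Hes1-null marrow. The arrays of each genotype lay close together, and the genotypes were well apart. Zfp459 fell by 1.57 ± 0.12 on the log2 scale, a 2.96-fold change (adjusted p = 0.0322 by limma), against a background of 0.145% of all genes called. The call ended without wild-type replicate 1 (adjusted p = 0.0681), wild-type replicate 2 (0.116) or Hes1-null replicate 2 (0.0645), with the difference between -1.59 and -1.54. The files carry no detection calls, and the highest level of 4 Y-linked genes, 4.09, lay only a little below its Hes1-null levels. This limit takes the Y-linked genes to be silent in these marrows, which was not tested. Zfp105, another zinc finger gene, came next. It lay at 5.66 and 5.70 in wild type and at 4.51 and 4.56 in Hes1-null marrow, again without overlap. Its difference of -1.14 ± 0.12 (2.21-fold) had an adjusted p of 0.0600 by limma and did not pass. The Hes1-null levels of Zfp105 were also only a little above 4.09.

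Promoters of 4 members are given here because Hes family repressors are known to bind the class C site CACGNG and the N box CACNAG. Zfp459 and Zfp105 had the lowest differences of all members, Zfp580 had the highest, and Zfp318, a gene of B cells, was chosen after its values were seen. Each sequence is the 250 bases before the RefSeq gene start (GRCm38.p6), 5′ to 3′ on the strand of the gene, with matches to CACGNG or CACNAG on either strand in capitals. Zfp459 is chr13:67421419-67421668 (minus strand), Zfp105 is chr9:122922828-122923077 (plus), Zfp580 is chr7:5051282-5051531 (plus) and Zfp318 is chr17:46383516-46383765 (plus).
Zfp459: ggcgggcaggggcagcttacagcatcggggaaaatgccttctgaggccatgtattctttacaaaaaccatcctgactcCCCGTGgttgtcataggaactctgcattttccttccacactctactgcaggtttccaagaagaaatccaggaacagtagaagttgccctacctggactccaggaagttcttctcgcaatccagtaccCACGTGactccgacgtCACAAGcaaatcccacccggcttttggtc
Zfp105: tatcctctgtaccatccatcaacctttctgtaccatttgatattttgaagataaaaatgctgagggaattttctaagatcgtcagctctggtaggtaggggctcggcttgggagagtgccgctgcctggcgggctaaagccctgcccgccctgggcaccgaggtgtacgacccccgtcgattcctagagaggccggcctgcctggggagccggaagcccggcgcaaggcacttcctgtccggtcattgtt
Zfp580: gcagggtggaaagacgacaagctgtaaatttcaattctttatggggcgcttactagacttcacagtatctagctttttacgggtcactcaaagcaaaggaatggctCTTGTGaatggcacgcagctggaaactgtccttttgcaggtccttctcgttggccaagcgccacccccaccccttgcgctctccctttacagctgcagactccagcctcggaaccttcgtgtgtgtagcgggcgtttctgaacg
Zfp318: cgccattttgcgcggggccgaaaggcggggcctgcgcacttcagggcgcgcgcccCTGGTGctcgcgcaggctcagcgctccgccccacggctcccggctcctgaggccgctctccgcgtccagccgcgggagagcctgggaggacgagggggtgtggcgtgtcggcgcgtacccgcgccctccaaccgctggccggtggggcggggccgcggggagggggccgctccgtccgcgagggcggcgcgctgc
The Zfp459 window held 2 matches to CACGNG, of which 1 was the E box CACGTG, and 1 match to CACNAG. Zfp580 and Zfp318 each held 1 match to CACNAG and 0 to CACGNG, and Zfp105 held 0 of either in this window. The E box reads the same on both strands and is itself a CACGNG match. A match is a description of the letters, not a shown binding site.

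The share of windows with a match was read over all members. RefSeq windows were found for 260 of the 316 members, 320 windows in all, since a gene can have several starts. CACGNG was present in 26.2% of them, in 28.5% of the 19177 windows of measured genes and in 23.5% of all 32851 windows. CACNAG was present in 40.9%, 36% and 36.7% of the same sets, whose median GC content was 54.6%, 56.8% and 52.4%. The members' share for CACGNG thus lay between the shares of the other sets, and no difference was tested. Among members higher in Hes1-null marrow without overlap (87 windows) the shares were 24.1% and 32.2%, and among members lower without overlap (37 windows) 24.3% and 37.8%. Members whose genotypes overlapped (196 windows) had 27.6% and 45.4%. The GC content of the windows had a median of 58.4% in the higher, 54.8% in the lower and 53.2% in the overlapping members.

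As a family, more members were higher than lower in Hes1-null marrow. Of 316 members, in 85 both Hes1-null arrays exceeded both wild-type arrays (26.9%, where 17.4% of all genes did), in 38 both lay below (12.0%, where 20.6% of all genes did), and in 193 the genotypes overlapped. At an unadjusted p of 0.05 by limma, 21 members were higher (background 3.51%) and 7 lower (background 4.78%), and apart from Zfp459 none passed after adjustment. The median difference was 0.044 over the members and -0.017 over all genes. The excess of higher over lower members lay in the brighter range. Of the 197 at or above the median gene level, 68 were higher without overlap (background 22.9% of genes in that range) and 17 lower (background 20.5%). Of the 119 below it, 17 were higher (background 11.9%) and 21 lower (background 20.6%), and 15 members did not exceed 4.09 on any array. Of 35 Zbtb genes, zinc finger genes with a BTB domain, 8 were higher (22.9%) and 6 lower (17.1%) without overlap. Of 22 Zscan and Zkscan genes, which carry a SCAN domain, 7 were higher (31.8%) and 2 lower (9.09%), all read against the 17.4% and 20.6% of all genes.

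**Figure D1:**
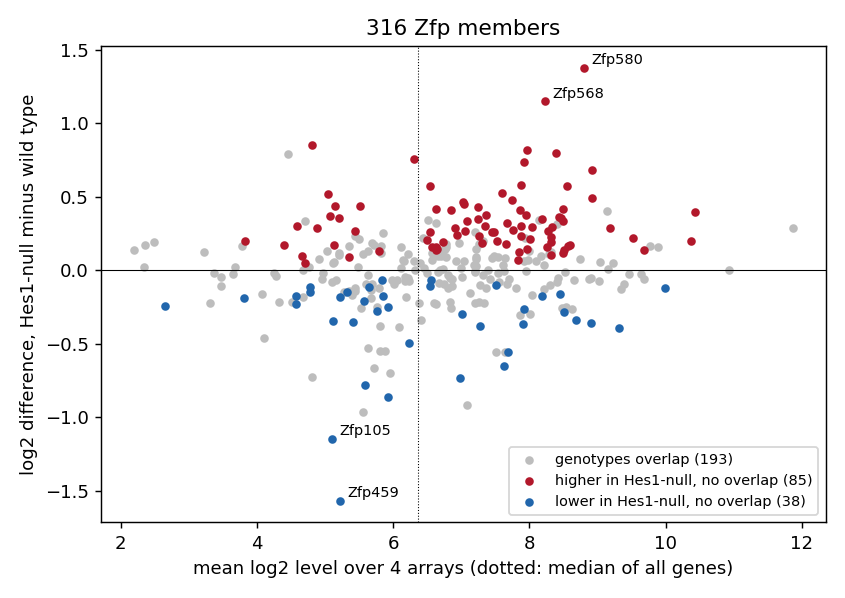
Each point is 1 of 316 Zfp members, with its mean log2 level over 4 arrays on the horizontal axis and its log2 difference, Hes1-null minus wild type, on the vertical axis; colours mark the 85 members higher and 38 lower without overlap of genotypes, and the dotted line marks the median level of all genes. Zfp459 and Zfp105 lie lowest and Zfp580 and Zfp568 highest.

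The 2 Hes1-null arrays did not show the same pattern. The median member lay 0.10 above the wild-type mean on Hes1-null array 1, where the median of all genes lay at -0.035. On Hes1-null array 2 the median member lay at -0.019 and the median gene at 0.0090. Both comparisons share the wild-type arrays. On array 1, 182 members exceeded both wild-type arrays (background 34.4%) and 75 fell below both (background 44.3%). On array 2 the counts were 131 above (background 42.1%) and 132 below (background 40.0%), close to the background of all genes. Both medians and counts varied with level. At or above the median gene level, the 197 members had medians of 0.15 on array 1 and -0.0052 on array 2. All genes in that range had 0.053 and -0.062. On array 2, 89 of these members lay above both wild-type arrays (3717 of 9969 genes) and 80 below both (5016 of 9969 genes). Below that level the array 2 medians were -0.028 for members and 0.052 for genes. The median difference of the family was 0.10 with Hes1-null replicate 2 left out and -0.019 with Hes1-null replicate 1 left out. The sign of this median over all members thus rests on array 1. Without Hes1-null replicate 1, the test takes its spread from the wild-type arrays alone, so its calls are not read here.

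**Figure D2:**
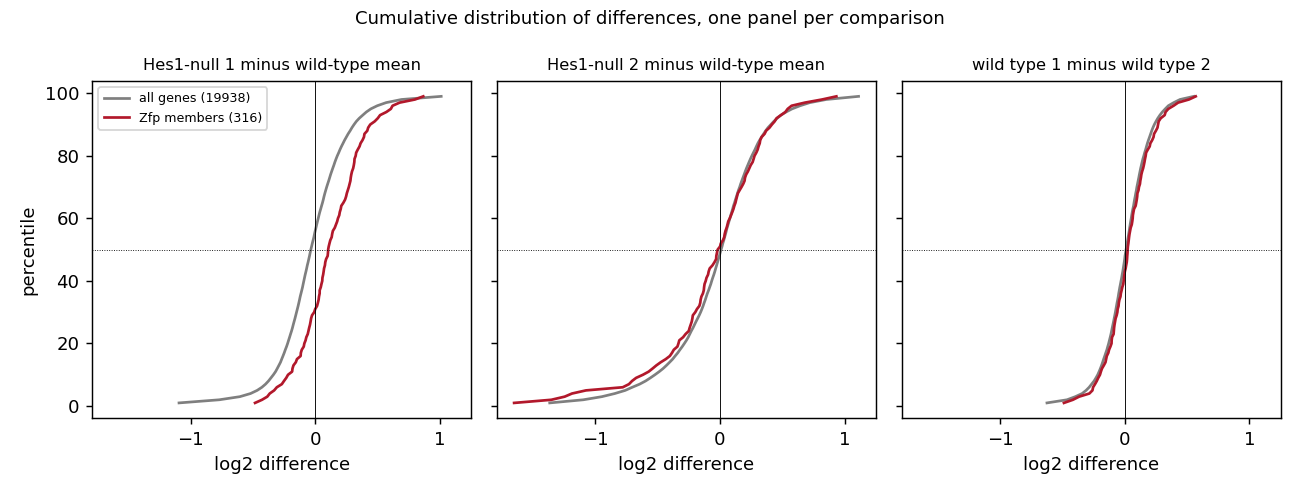
Cumulative curves of the log2 difference for the 316 Zfp members (red) and all 19938 genes (grey), with the percentile on the vertical axis, for Hes1-null array 1 against the wild-type mean, Hes1-null array 2 against the same mean, and wild-type array 1 against wild-type array 2. The red curve lies to the right of the grey one on Hes1-null array 1 (medians 0.10 and -0.035) and has a longer lower tail on Hes1-null array 2.

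On array 1, 18 members lay at least 1.5-fold above the wild-type mean (background 2.85%) and 2 below it (background 3.17%). On array 2 it was 12 above (background 4.89%) and 35 below (background 8.22%). Of these 35, 17 were among the 197 members at or above the median gene level (1376 of 9969 genes). The other 18 were among the 119 below it (262 of 9969 genes). Few members lay 1.5-fold from the wild-type mean on both Hes1-null arrays: 7 upwards (background 1.23%) and 2 downwards (background 1.97%). The latter were Zfp459 and Zfp105. Zfp580, a C2H2 gene, lay at 8.24 and 7.98 in wild type and at 9.64 and 9.34 in Hes1-null marrow, a difference of 1.38 ± 0.20 (2.60-fold, adjusted p = 0.118 by limma). Zfp568 encodes a KRAB repressor that silences a placental promoter of the growth factor gene Igf2 and is needed for embryonic morphogenesis. It lay at 7.77 and 7.53 against 9.01 and 8.59, a difference of 1.15 ± 0.22 (2.22-fold, adjusted p = 0.208 by limma). For both genes every Hes1-null array stood above every wild-type array by more than the arrays of a genotype differed.

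Zfp442 lay at 4.49 and 4.28 in wild type and at 5.25 and 5.22 in Hes1-null marrow (0.85 ± 0.13). Its wild-type levels were only a little above the Y-linked limit of 4.09. Zfp954 lay at 7.41 and 7.69 against 8.16 and 8.58 (0.82 ± 0.22), and Zfp395 at 7.88 and 8.11 against 8.74 and 8.84 (0.80 ± 0.17). A dimmer second probe set of Zfp395 gave a difference of 0.77. The other pair were Zfp507, at 5.89 and 5.97 against 6.54 and 6.84 (0.76 ± 0.16), and Zfp979, at 7.68 and 7.44 against 8.40 and 8.20 (0.74 ± 0.18). None of these 5 passed over all genes, with adjusted p from 0.142 to 0.389 by limma, and none overlapped between genotypes.

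Among brighter members, the other large positive differences without overlap were those of Zfp628 (0.68 ± 0.28), Zfp53 (0.58 ± 0.20), Zfp358 (0.58 ± 0.17), Zfp658 (0.57 ± 0.21) and Zfp1 (0.53 ± 0.16). Zfp628 was uneven, at 8.87 on Hes1-null array 1 and 9.65 on array 2, against 8.54 and 8.62 in wild type. Among brighter members whose genotypes did not overlap, the largest negative differences included several set by array 2. Zfp781 lay at 7.41 and 7.29 in wild type, at 7.25 on Hes1-null array 1 and at 5.99 on array 2 (-0.74 ± 0.41). Zfp318 and Zfp985 were lower on both arrays: Zfp318 lay at 7.86 and 8.05 against 7.40 and 7.21 (-0.65 ± 0.17), and Zfp985 at 7.99 and 7.95 against 7.52 and 7.32 (-0.55 ± 0.17). Zfp710 (-0.39 ± 0.16), Zfp128 (-0.38 ± 0.21), Zfp961 (-0.36 ± 0.24), Zfp692 (-0.34 ± 0.24) and Zfp958 (-0.30 ± 0.19) followed. Against the wild-type mean, Zfp710 lay at -0.48 on array 1 and -0.30 on array 2. The other genes lay further down on array 2. Zfp128 lay at -0.15 and -0.61 on arrays 1 and 2, and Zfp961 at -0.078 and -0.65. Zfp692 lay at -0.046 and -0.63, and Zfp958 at -0.098 and -0.50. None of these passed over all genes.

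**Figure D3:**
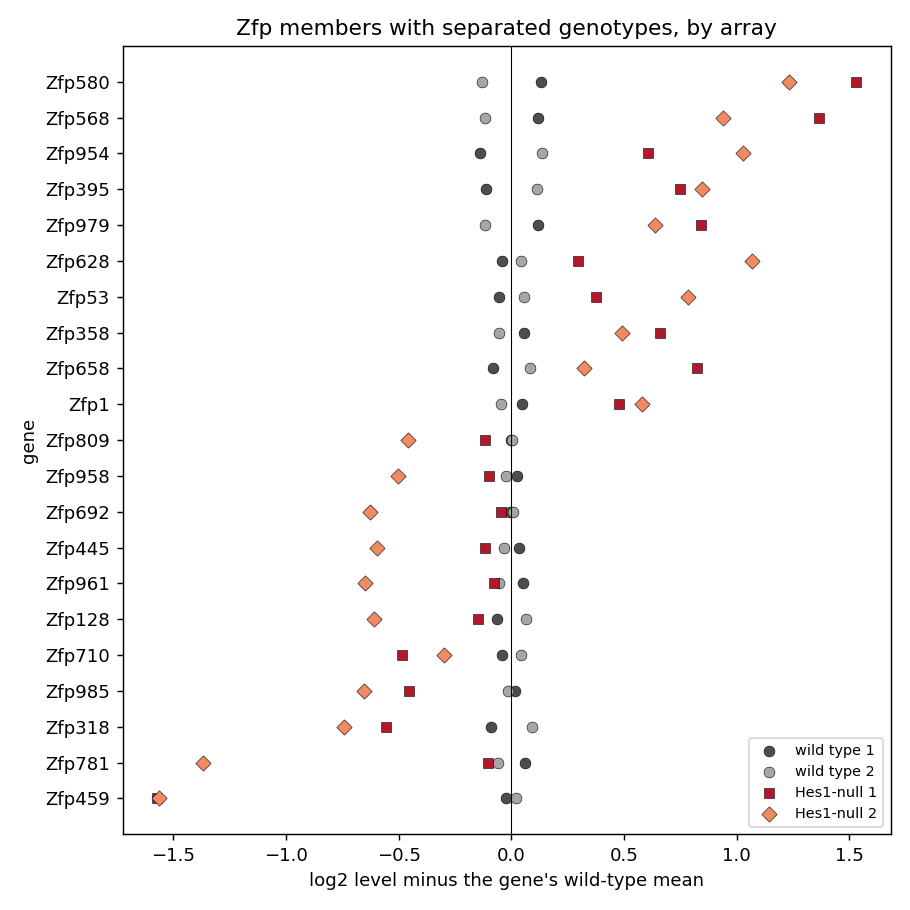
Log2 level on each array minus the wild-type mean of the gene, for Zfp459 and for the 10 Zfp members with the largest differences in each direction (at or above the median level, genotypes not overlapping); circles are wild-type arrays 1 and 2, squares Hes1-null array 1 and diamonds Hes1-null array 2. The squares and diamonds lie together for Zfp459 (-1.57 and -1.56) and far apart for Zfp781 (-0.10 and -1.37).

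A larger set of members differed between the Hes1-null arrays themselves. At least 1.5-fold lay between these arrays for 55 members (background 14.1%), of which 49 were lower on array 2 (background 8.86%) and 6 lower on array 1 (background 5.27%). Between the wild-type arrays it was 5 members (background 2.01%). The excess between the Hes1-null arrays lay below the median gene level, in 24 of 119 members there (779 of 9969 genes). At or above that level it was 31 of 197 members (2038 of 9969 genes), no excess. The 10 widest gaps, chosen after their values were seen, were all with array 2 lower. Zfp709 was at 3.15 on Hes1-null array 2, against 5.14 and 5.21 in wild type and 5.74 on Hes1-null array 1. Zfp882, of the same cluster on chromosome 8, was at 4.04 there, against 6.33 and 5.75 in wild type and 6.11 on array 1. Zfp111, in the Zfp180 cluster on chromosome 7, was at 5.62, against 7.55 and 7.53 in wild type and 7.62 on array 1. In each case Hes1-null array 2 lay well below the other 3 arrays. Zfp72, Zfp946, Zfp759, Zfp953, Zfp873 and Zfp763 showed gaps from 2.27 down to 1.30 on the log2 scale. Zfp229 was the other one. Levels on Hes1-null array 2 of 3.15 for Zfp709, 4.04 for Zfp882 and 3.14 for Zfp229 were under 4.09, the Y-linked limit given above, so these levels are not shown to lie above background and no fold is given for them.

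Many of these genes sit in tandem clusters. By the order of genes in the RefSeq table, 76 of 315 placed members fell into 12 runs of at least 4 measured members with at most 3 other genes between neighbours. Members of runs had a median of 0.24 on Hes1-null array 1 and -0.15 on array 2, and those outside runs 0.079 and 0.028. Without overlap, 16 of the 76 members of runs were higher and 10 lower, against 69 and 28 of the 239 outside, where 17.4% of all genes were higher and 20.6% lower. On chromosome 13, the run with Zfp459 holds 9 measured members. Zfp459 was the 1 member of it without overlap, while Zfp455 lay at 6.48 and 6.45 in wild type, 7.33 on Hes1-null array 1 and 6.24 on array 2. Zfp759 and Zfp953 lay 1.45 and 1.28 below the wild-type mean on array 2 and 0.050 and 0.17 above it on array 1. Neighbours in this run therefore did not share the level pattern of Zfp459.

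The run of 12 members on chromosome 17 was split as well. Zfp51, Zfp53 and Zfp942 were higher without overlap (0.48, 0.58 and 0.38) and Zfp677 and Zfp760 lower (-0.86 and -0.78). Its median was 0.29 on Hes1-null array 1 and -0.27 on array 2, where it includes Zfp229, under the limit given above. In the other run on chromosome 17, with 5 members, Zfp472 was higher (0.44) and Zfp870 lower (-0.49), while Zfp563 and Zfp763 were lower on array 2 alone, 1.28 and 1.20 below the wild-type mean. In the chromosome 8 run, where Zfp709 and Zfp882 were under the limit on array 2, Zfp617 lay at 6.38 and 6.27 in wild type, 6.58 on Hes1-null array 1 and 6.08 on array 2, and Zfp961 at 8.14 and 8.03, 8.01 and 7.44. All 4 were therefore lowest on array 2, with no median given there. In the chromosome 7 run with Zfp568, the other 5 members overlapped between genotypes. Their differences ran from 0.096 to 0.20, apart from Zfp82, which was under the limit on array 2. The run with Zfp580, also on chromosome 7, had a median difference of 0.16. Of its 5 members 3 were higher without overlap and 0 lower, where 17.4% and 20.6% of all genes were. These were Zfp580, Zfp865 (0.35) and Zfp784 (0.16), a count too small to read against the background. Tandem copies can be alike in sequence, probe sequences were not used here, and whether 1 probe set picks up the RNA of its neighbours was not tested.

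**Figure D4:**
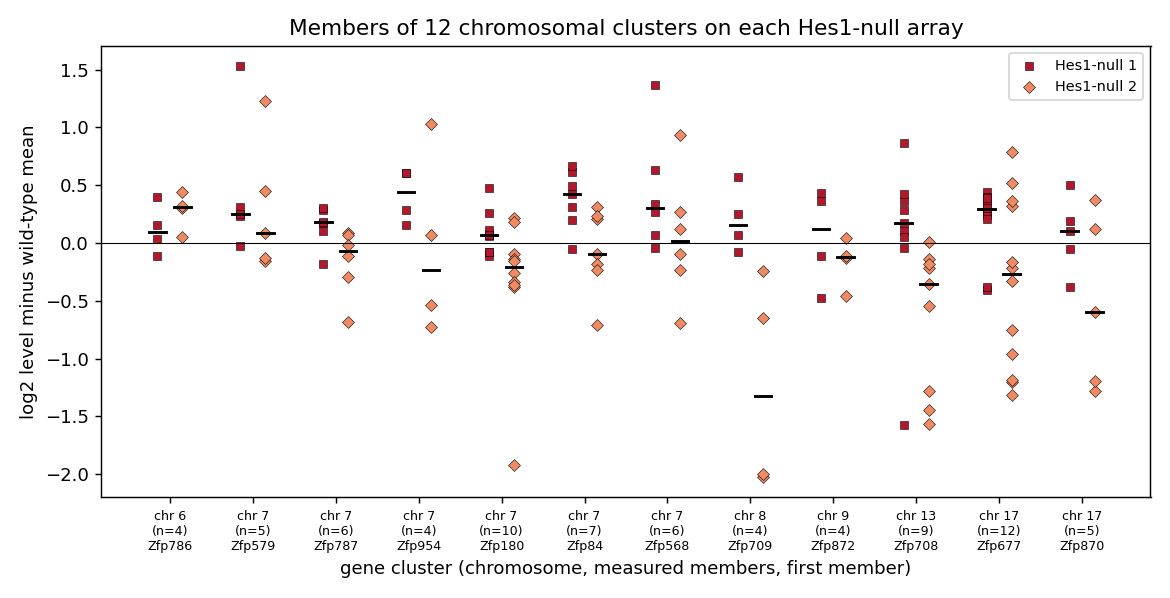
Log2 level minus the wild-type mean for each member of 12 chromosomal runs of Zfp genes, on Hes1-null array 1 (squares) and Hes1-null array 2 (diamonds), with a bar at the median; the axis names the chromosome, the number of measured members and the first member of each run. In the 5-member chromosome 17 run the medians are 0.10 and -0.60. On Hes1-null array 2 the points of Zfp709, Zfp882, Zfp229, Zfp82 and Zfp114, and on array 1 those of Zfp872 and Zfp114, are levels under 4.09, not shown to lie above background, and the bars of their runs include them.

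Of 7 listed members known for silencing retroelements or keeping imprints, 6 were measured. Of these 1 was higher and 2 lower without overlap (background 17.4% and 20.6%), counts too small to read against the background, and the median difference was -0.046, where that of all genes was -0.017. Zfp568 was the higher one. Zfp445, which maintains imprints together with Zfp57, lay at 9.12 and 9.05 in wild type and at 8.97 and 8.49 in Hes1-null marrow (-0.36 ± 0.21). Zfp809, which silences retroviruses through their primer binding site, lay at 8.65 and 8.66 against 8.54 and 8.20 (-0.29 ± 0.19). Zfp57, Zfp708 and Zfp819 overlapped between genotypes. None of the 6 passed over all genes.

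Among members known in blood and lymphoid cells, 7 of 9 were measured, 3 higher and 2 lower without overlap (background 17.4% and 20.6%), with a median of 0.021 (-0.017 over all genes). Zfp318, which is needed for the splicing that lets B cells make IgD, was the lowest of them, with the values given above. Zfp384, a nuclear matrix transcription factor fused in some leukemias, lay at 10.25 and 10.30 in wild type and at 10.49 and 10.47 in Hes1-null marrow (0.20 ± 0.13). Zfp335 (0.17 ± 0.16), a gene of T cell maturation, and Zfp148 (0.14 ± 0.15) were slightly higher, and Zfp407 slightly lower (-0.17 ± 0.17). None of these passed over all genes. Zfp521, known in early hematopoietic progenitors, lay between 4.73 and 4.82 on all 4 arrays, and Zfp423, its close relative that partners with EBF factors, overlapped (-0.064 ± 0.17). The fat and mesenchyme list, which shares Zfp423 and Zfp521, had 4 of 4 measured. All overlapped, as did 12360 of 19938 genes, including Zfp467 (0.067 ± 0.19) and Zfp516 (-0.13 ± 0.23).

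Of the members known in embryonic stem cells, 4 of 5 were measured, 2 higher and 1 lower without overlap (background 17.4% and 20.6%). Zfp281 lay at 9.08 and 9.01 against 9.26 and 9.40 (0.29 ± 0.16) and Zfp296 at 7.47 and 7.55 against 7.86 and 7.80 (0.32 ± 0.16). Zfp462 was lower (-0.28 ± 0.17), and the stem cell marker Zfp42, also called Rex1, was dim in both genotypes, between 3.42 and 3.87. None passed over all genes. The ZMYND8 chromatin partners gave small differences of both signs, Zfp592 at 0.22 ± 0.18, Zfp687 at -0.12 ± 0.14 and Zfp532 at -0.12 ± 0.12. Of 5 corepressor and SUMO ligase members, 1 was higher without overlap, Zfp219 (0.30 ± 0.15), and 0 lower (background 17.4% and 20.6%). This is near the background. Zfp217, Zfp451, Zfp652 and Zfp703 overlapped. Zfp703 lay at 8.28 and 8.22 in wild type, 8.20 on Hes1-null array 1 and 8.94 on array 2.

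Of 9 members with roles in RNA, the ribosome or the spindle, 7 overlapped between genotypes, as did 12360 of 19938 genes. The other pair were higher without overlap and 0 were lower (background 17.4% and 20.6%), with a median of 0.065 (-0.017 over all genes). Zfp593, whose yeast relative acts in assembly of the large ribosomal subunit, lay at 8.69 and 8.66 in wild type and at 9.12 and 9.22 in Hes1-null marrow (0.49 ± 0.16, adjusted p = 0.486 by limma). Zfp622, of the same process, differed by 0.12 ± 0.16. Zfp207, a spindle assembly factor, lay at 10.94 and 10.91 against 10.98 and 10.88, a difference of 0.0036 ± 0.12 with a 95% interval from -0.29 to 0.30. Zfp638, an RNA-binding splicing factor, lay at 8.05 and 7.78 in wild type, 7.86 on Hes1-null array 1 and 6.86 on array 2 (-0.56 ± 0.35). Zfp106, Zfp326, Zfp346, Zfp598 and Zfp830 overlapped. The 5 members with the brightest probe sets were Zfp706, Zfp207, Zfp362, Zfp384 and Zfp687. Of these Zfp362 lay at 10.22 and 10.25 against 10.48 and 10.78 (0.40 ± 0.15, adjusted p = 0.595), and Zfp706 overlapped.

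The partners that KRAB proteins recruit also differed between the Hes1-null arrays. Of 26 listed genes 23 were measured, 0 passed over all genes by limma, 1 was higher and 0 lower at an unadjusted p of 0.05 (background 3.51% and 4.78%), and the median difference was -0.065. Trim28, the scaffold, lay at 10.49 and 10.42 in wild type and at 10.57 and 10.43 in Hes1-null marrow, and overlapped. Setdb1, the histone methyltransferase it recruits, lay at 8.53 and 8.54 against 8.63 and 8.31. The gene at an unadjusted p below 0.05 was Chd3, a NuRD remodeller, at 6.66 and 6.55 against 7.08 and 7.13 (0.50 ± 0.15, adjusted p = 0.446). On Hes1-null array 1, 14 of the 23 lay above both wild-type arrays (background 34.4%), and on array 2, 18 of the 23 lay below both (background 40.0%). Array 1 was above array 2 in 21 of 23 partners, 198 of 316 Zfp members and 8699 of 19938 genes. The partners had a median level of 8.93, and brighter genes had larger shares. Of the 9969 genes at or above the median gene level, array 1 was above array 2 in 6015. In that range 4924 lay above both wild-type arrays on array 1, and 5016 below both on array 2. Hdac2, a histone deacetylase gene named after its values were seen, was at 8.09 on array 2, against 9.23 and 9.20 in wild type and 9.20 on array 1.

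**Figure D5:**
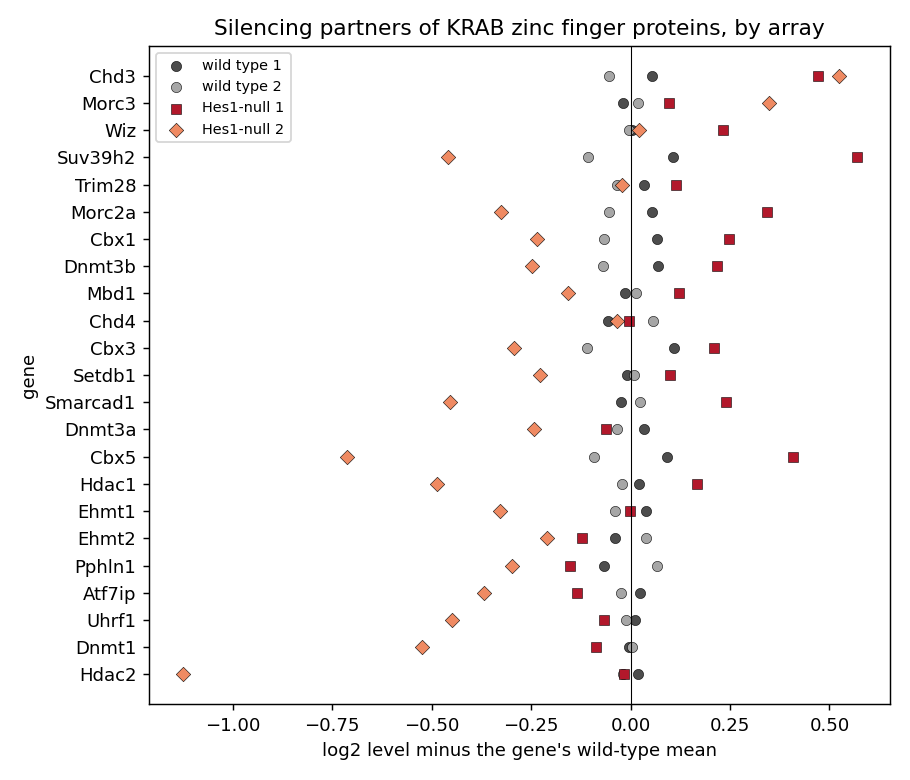
Log2 level on each array minus the wild-type mean of the gene for 23 silencing partners of KRAB zinc finger proteins, with circles for wild type, squares for Hes1-null array 1 and diamonds for Hes1-null array 2. Diamonds lie to the left of the squares for 21 of 23 genes, and Cbx5 and Hdac2 have the widest gaps.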

How the data were processed

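RNA of 4 leukemic marrows was measured on Affymetrix mouse gene arrays, with 1 array a sample. The deposited intensities are linear and summarised per probe set. The submitters' processing notes name RMA and Affymetrix Expression Console. Software versions and the genome build are not given in the sources used here. A file of 35556 probe sets was used whole, with 0 sample columns left out. The platform annotation gives 1 symbol for 21789 of them, several for 1621 and lists no gene for 12146. Log2 was taken with no added value, and no background correction or scaling was repeated for the main results. The number of arrays limits the precision.

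The two-sided test was limma 3.58.1 (R 4.3.3) with eBayes and a trend in intensity, fitted on genotype alone over all 19938 genes, with Benjamini-Hochberg adjustment and a threshold of 0.05. Residual and prior degrees of freedom were 2 and 3.41. The test was run on data simulated from its own fitted variances, with equal spread on every array. That run cannot check it for uneven arrays. Over all genes the standard deviation of the difference was 0.436 between the Hes1-null arrays and 0.227 between the wild-type arrays. Entrez identifiers placed 315 members in the RefSeq table, all under the same symbol. Promoters came from RefSeq (GRCm38.p6). Opposite-strand windows that overlap agreed as reverse complements in 1671 of 1671 pairs.

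The members and the gene lists were chosen with earlier results of these data known. Named members were those with an adjusted p under 0.05, the 10 largest differences in each direction without overlap at or above the median level, the 5 brightest, the role lists and members of chromosomal runs, with others said to be chosen after their values were seen, or named because they lay at least 1.5-fold from the wild-type mean on both Hes1-null arrays. The marker and immediate early lists were read only as checks. Alternatives covered scaling, filters, moderation, array weights, probe set averaging, a replicate block and each array left out.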

Additional observations from a re-analysis of the deposited data

How the results depend on the processing

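The alternatives were the replicate block, a further quantile normalization, centring on array medians, 2 filters on level, array weights, robust or untrended moderation, averaged probe sets, and each array left out. Zfp459 kept its direction in every alternative that tested it. It was tested at the 25th percentile filter but lies below the median level of genes. With the filter at that median, the number of members called was 0 (limma; 14 higher and 3 lower at an unadjusted p under 0.05), and 17 members were lower without overlap. After quantile normalization 2 members were called, Zfp459 and Zfp105, among 46 genes. With the replicate number as a block 1 member was called, among 89 genes (0.446%) against 29 without it, and 16 members were higher (3.46% of all genes) and 10 lower (4.88%) at an unadjusted p under 0.05. Same-numbered arrays deviated together at r = 0.0505 over all genes and 0.12 over the members. The series design speaks of pairs of the genotypes, but nothing states whether a replicate number marks a pair, so the block was kept as an alternative.

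With 1 array left out, the lone array of a genotype is assumed to vary like the others. Then 0 to 20 members were called (0.0301 to 5.01% of all genes), 6 to 65 were higher (1.25 to 12.7%) and 4 to 63 lower (2.03 to 16.3%) at an unadjusted p under 0.05. Without overlap 115 to 182 were higher (25.9 to 42.1%) and 57 to 132 lower (29.4 to 44.3%), counts that grow because fewer arrays must agree. The family median ran from -0.019 to 0.10. The median on Hes1-null array 1 ran from 0.088 to 0.13, and on array 2 from -0.019 to 0.011. The KRAB partners had medians from -0.29 to 0.11, where those of all genes ran from -0.0355 to 0.00903. Of the partners, 0 to 12 were at an unadjusted p under 0.05 by limma (3.33 to 29% of all genes). The share over all genes thus varied widely too, and the count is not read as particular to the partners. Over 72 named genes and 13 alternatives, 27 of 913 values changed sign, in 18 genes, and 26 of them when an array was left out. Quantile normalization turned Zfp207 to -0.021. Leaving out an array gave ranges of -0.044 to 0.051 for Zfp207, -0.31 to 0.028 for Zfp57, -0.18 to 0.28 for Zfp708, -0.25 to 0.20 for Zfp42, -0.022 to 0.063 for Zfp521, -0.26 to 0.13 for Zfp423, -0.12 to 0.26 for Zfp467, -0.39 to 0.14 for Zfp516, -0.10 to 0.055 for Zfp106 and -0.20 to 0.080 for Zfp326. They were -0.041 to 0.31 for Zfp346, -0.025 to 0.16 for Zfp598, -0.32 to 0.20 for Zfp217, -0.048 to 0.68 for Zfp703, -0.12 to 0.28 for Zfp451, -0.072 to 0.41 for Zfp652, -0.022 to 0.11 for Trim28 and -0.23 to 0.099 for Setdb1. The cause of these changes was not tested. The planned split of members by a KRAB box was not run, because protein sequences were not used here.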

Other observations

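Of the 7 measured Zfp members on the X chromosome, 4 were higher in Hes1-null marrow without overlap and 0 lower, where 17.4% and 20.6% of all genes were. Zfp275 lay at 7.07 and 7.08 in wild type and at 7.24 and 7.61 in Hes1-null marrow. Zfp449, Zfp185 and Zfp92 were dim and differed by 0.29, 0.17 and 0.10. On Hes1-null array 2 Xist, which coats the silenced X, lay at 7.25, against 11.7 or more on the other arrays. Whether that touches the X-linked members was not tested.

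For 14 members the array holds more than 1 probe set with that symbol. They disagreed in sign for Zfp319 (0.34 for the brighter, -0.14 for the dimmer), Zfp706 (0.29 and -0.12) and Zfp825 (0.050 and -0.31). The 2 probe sets of Zfp788 hold the same values on every array (6.91, 6.92, 6.95 and 6.67), and the 3 of Zfp985 gave -0.55, -0.57 and -0.051, the last from a dim probe set.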
